A study of Mus musculus with 12 samples.

Results

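Acetylation of histone H3 at lysine 27 (H3K27ac), a mark of active promoters and enhancers, was examined at 37 genes of cholesterol and lipid handling in microglia, the resident macrophages of the brain. The genes were chosen by name and cover sterol sensing (5 genes), sterol synthesis (12), cholesterol efflux, esterification and oxysterol formation (5), fatty acid synthesis, elongation and desaturation (8), and lipid storage, transport and oxidation (7). H3K27ac tags had been counted in 67822 windows of 1000 bp on accessible sites, each assigned to the nearest transcription start site (TSS), and for each gene all windows up to 100 kb from its TSS were summed. Of the 37 genes, 35 had such windows, 157 in all, out of 15879 genes in the table. Elovl6, a fatty acid elongase, had none. The 3 windows of Acaca, which encodes acetyl-CoA carboxylase, lay 137.7 to 155.9 kb from its TSS and were left out of the sums.

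The knockout (KO) libraries came from Cias1-knockout mice, named Nlrp3-/- and credited to Millennium Pharmaceuticals; Cias1 is an older name of Nlrp3, the gene of an inflammasome sensor. The wild-type (WT) libraries came from mice of the C57BL/6N background. Each genotype had 3 H3K27ac libraries and 3 libraries of input chromatin, all from forebrain cells selected with magnetic beads for CD11b, a surface protein that other myeloid cells also carry. The labels give no treatment, age or sex and name no cell-specific driver of the deletion. They do not say whether replicates are separate animals, so the p-values measure the spread between these samples, which may be technical. In such bulk chromatin, fewer cells with the mark and less mark per cell cannot be told apart.

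Cells adjust cholesterol through a membrane-bound pair of transcription factors, SREBF1 and SREBF2, which the escort protein SCAP carries out of the endoplasmic reticulum when sterols are scarce and which the INSIG proteins hold back when sterols are plentiful. Once released, they activate genes of sterol and fatty acid synthesis at sterol regulatory elements, often beside sites of the factor NF-Y. Oxysterols instead activate the liver X receptors (LXR), which bind paired half-sites and switch on the cholesterol exporters ABCA1 and ABCG1 as well as Srebf1. Microglia take up myelin and cell debris rich in cholesterol, and export it or store it as esters in lipid droplets.

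Promoter sequences were matched from RefSeq (GRCm38.p6, a patch of the mm10 build) by symbol. They were found for 26 of the 37 genes, as 33 stretches of 250 bases before and 50 after an annotated start. A paired LXR half-site, written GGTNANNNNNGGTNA, was searched on both strands. The first base of each half-site, the N within its GGTNA and the 4 spacer bases are left free. The pattern was present in 3 of the 33 stretches (9.09%), against 0.718% of all 32851 stretches in the table and 0.41% of the 12941 that overlap a counted window. The 3 genes were Abca1, Srebf1 and Fasn, the fatty acid synthase, and their bases before the start are shown because of this match, which is in capitals with the NF-Y box (CCAAT or ATTGG) and the E-box (CACGTG).
Abca1, chr4:53159896-53160045, minus strand: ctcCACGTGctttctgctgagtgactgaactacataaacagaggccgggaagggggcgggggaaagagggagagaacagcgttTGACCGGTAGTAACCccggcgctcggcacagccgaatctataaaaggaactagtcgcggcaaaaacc
Srebf1, chr11:60210472-60210661, minus strand: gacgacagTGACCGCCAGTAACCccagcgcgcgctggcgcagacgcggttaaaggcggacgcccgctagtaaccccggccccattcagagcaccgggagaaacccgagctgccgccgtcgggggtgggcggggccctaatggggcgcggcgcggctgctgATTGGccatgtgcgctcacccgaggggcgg
Fasn, chr11:120824548-120824782, minus strand: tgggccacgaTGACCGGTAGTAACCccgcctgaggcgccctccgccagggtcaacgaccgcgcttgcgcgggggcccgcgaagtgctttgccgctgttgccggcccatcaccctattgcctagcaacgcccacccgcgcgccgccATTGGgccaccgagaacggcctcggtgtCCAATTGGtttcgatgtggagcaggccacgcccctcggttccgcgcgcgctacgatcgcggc

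A sterol regulatory element written TCACNCCAC was present in 1 stretch (3.03%, against 1.24% of all stretches and 1.14% of those on a window), that of Hmgcs1, which encodes a synthase of the mevalonate pathway. With the last letter left out (TCACNCCA, a form chosen after the sequences were seen) it was present in 4 of 33 stretches (12.1%, against 4.36% and 3.69%), those of Hmgcs1, Srebf2, Msmo1 and Plin3. CCAAT was present in 20 stretches (60.6%, against 37.4% and 38.0%), CACGTG in 8 (24.2%, against 7.15% and 10.5%) and GAGGAAG, the core of the myeloid factor PU.1, in 6 (18.2%, against 13.6% and 14.5%). Overlapping stretches of Scap hold the same CACGTG and the same GAGGAAG, so by gene these last counts were 7 and 5 of 26. Matches of different motifs did not overlap in these 33 stretches. The next 4 sequences are those of Hmgcs1 and of the 3 genes whose promoter acetylation is described most closely in the sterol paragraphs: Srebf2, Idi1 and Mvk. Capitals mark TCACNCCA and the NF-Y box.
Hmgcs1, chr13:119690111-119690350, plus strand: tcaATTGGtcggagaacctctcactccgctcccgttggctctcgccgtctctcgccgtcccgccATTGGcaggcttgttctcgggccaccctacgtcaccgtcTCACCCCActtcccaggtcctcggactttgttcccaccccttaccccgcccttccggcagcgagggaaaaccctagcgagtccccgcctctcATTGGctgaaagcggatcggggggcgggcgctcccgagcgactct
Srebf2, chr15:82147099-82147268, plus strand: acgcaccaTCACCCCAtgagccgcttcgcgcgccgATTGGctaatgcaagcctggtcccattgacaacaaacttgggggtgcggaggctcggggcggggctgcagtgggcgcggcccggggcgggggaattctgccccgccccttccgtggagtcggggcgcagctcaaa
Idi1, chr13:8885546-8885605, plus strand: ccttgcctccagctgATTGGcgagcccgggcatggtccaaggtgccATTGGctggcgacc
Mvk, chr5:114444089-114444268, plus strand: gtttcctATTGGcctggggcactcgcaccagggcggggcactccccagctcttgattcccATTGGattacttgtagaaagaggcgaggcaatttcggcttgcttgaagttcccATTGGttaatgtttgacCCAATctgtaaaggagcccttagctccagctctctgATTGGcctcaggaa

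The last 4 stand for the ends of the acetylation range and for a further gene with a named window: Insig2 and Pnpla2 have the highest H3K27ac over input at the TSS in KO and in WT among the promoters in the RefSeq table, Fads2 has the lowest in both, and Soat1 holds an intronic window described with the efflux genes. Capitals mark the NF-Y box.
Insig2, chr1:121328025-121328174, minus strand: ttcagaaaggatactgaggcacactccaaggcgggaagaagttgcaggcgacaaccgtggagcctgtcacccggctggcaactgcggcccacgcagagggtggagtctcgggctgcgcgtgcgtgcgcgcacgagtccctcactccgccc
Pnpla2, chr7:141455068-141455187, plus strand: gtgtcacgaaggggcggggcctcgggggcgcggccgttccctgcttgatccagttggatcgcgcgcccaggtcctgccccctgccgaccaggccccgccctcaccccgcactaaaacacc
Fads2, chr19:10101504-10101623, minus strand: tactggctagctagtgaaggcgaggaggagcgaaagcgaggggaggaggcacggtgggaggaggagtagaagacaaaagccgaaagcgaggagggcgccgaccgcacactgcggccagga
Soat1, chr1:156474329-156474408, minus strand: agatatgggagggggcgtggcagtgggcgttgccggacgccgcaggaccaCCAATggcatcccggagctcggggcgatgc

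The H3K27ac libraries held 4531757 to 5028129 tags in KO and 3726550 to 4492763 in WT, with 39.1% to 46.1% of them in windows. Input libraries held 3287009 to 6961590 tags, with 8.31% to 9.32% in windows. The targeted gene was depleted in the libraries labelled KO, more so in 1 of its 2 TSS windows. That window (chr11:59542134-59543134, mm10) held 1, 0 and 16 tags in KO replicates 1, 2 and 3, against 180, 180 and 195 in WT replicates. The other (chr11:59541020-59542020) held 17, 20 and 43 tags in KO, against 138, 91 and 119 in WT. Tags at Y-linked promoters were 0 in WT replicate 1, in H3K27ac as in input, so this library differs in source from the others. Promoters of 8 of 8 microglia markers had windows, with a summed level of 258 to 298 CPM (counts scaled to equal totals of all tags) in KO and 258 to 308 CPM in WT. The levels of other cell types were 0 to 0.994 in KO and 0.537 to 1.18 CPM in WT for 1 of 6 astrocyte markers, 6.09 to 14.3 and 7.80 to 8.05 CPM for 2 of 6 oligodendrocyte markers, 0 and 0 to 0.890 CPM for 1 of 6 neuron markers, 20.1 to 23.2 and 12.3 to 23.8 CPM for 4 of 5 endothelial and mural markers, and 1.59 to 6.09 and 0.473 to 3.34 CPM for 2 of 5 border macrophage markers. None of the 5 monocyte and neutrophil markers, Ccr2 and S100a8 among them, and none of the 4 lymphocyte markers had a promoter window. Markers without a promoter window were not measured there. The sums cover 13 windows for microglia, 1 for astrocyte, 3 for oligodendrocyte and 1 for neuron markers. They cover 5 for endothelial and mural and 2 for border macrophage markers, so the sums are not levels per window.

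H3K27ac per gene was compared between KO and WT with edgeR's quasi-likelihood test over all 12148 genes that passed the abundance filter, with Benjamini-Hochberg adjustment; a gene is called below an adjusted p of 0.05. The filter kept 33 of the 37 genes. Besides Acaca and Elovl6 it removed Sqle, the squalene epoxidase, with 0, 1 and 9 tags in KO and 5, 1 and 18 in WT, and Fads2, a fatty acid desaturase, with 5, 2 and 0 tags in KO and 4, 2 and 2 in WT. None of the 33 genes was called, where 25 (0.206%) of all tested genes were; 2 of the 33 (6.06%) had an unadjusted p under 0.05, where 5.77% of all did, and DESeq2 also called 0 of the 33. The log2 fold change (KO minus WT) was positive for 19 and negative for 14, with a median of 0.03 against 0.001 over all tested genes, and it ranged from −0.76 to 0.80. Without WT replicate 3 the median was −0.06, and without WT replicate 1, the library with no Y-linked tags, it was 0.10. In 3 genes every KO library lay above every WT library and in 0 genes below, which is 9.09% against 11.3% of all genes in either direction (5.47% higher and 5.83% lower). The 3 were Srebf2, Idi1 and Mvk; with libraries scaled to total tags only Srebf2 was separate (3.03%, against 9.63% of all).

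**Figure D1:**
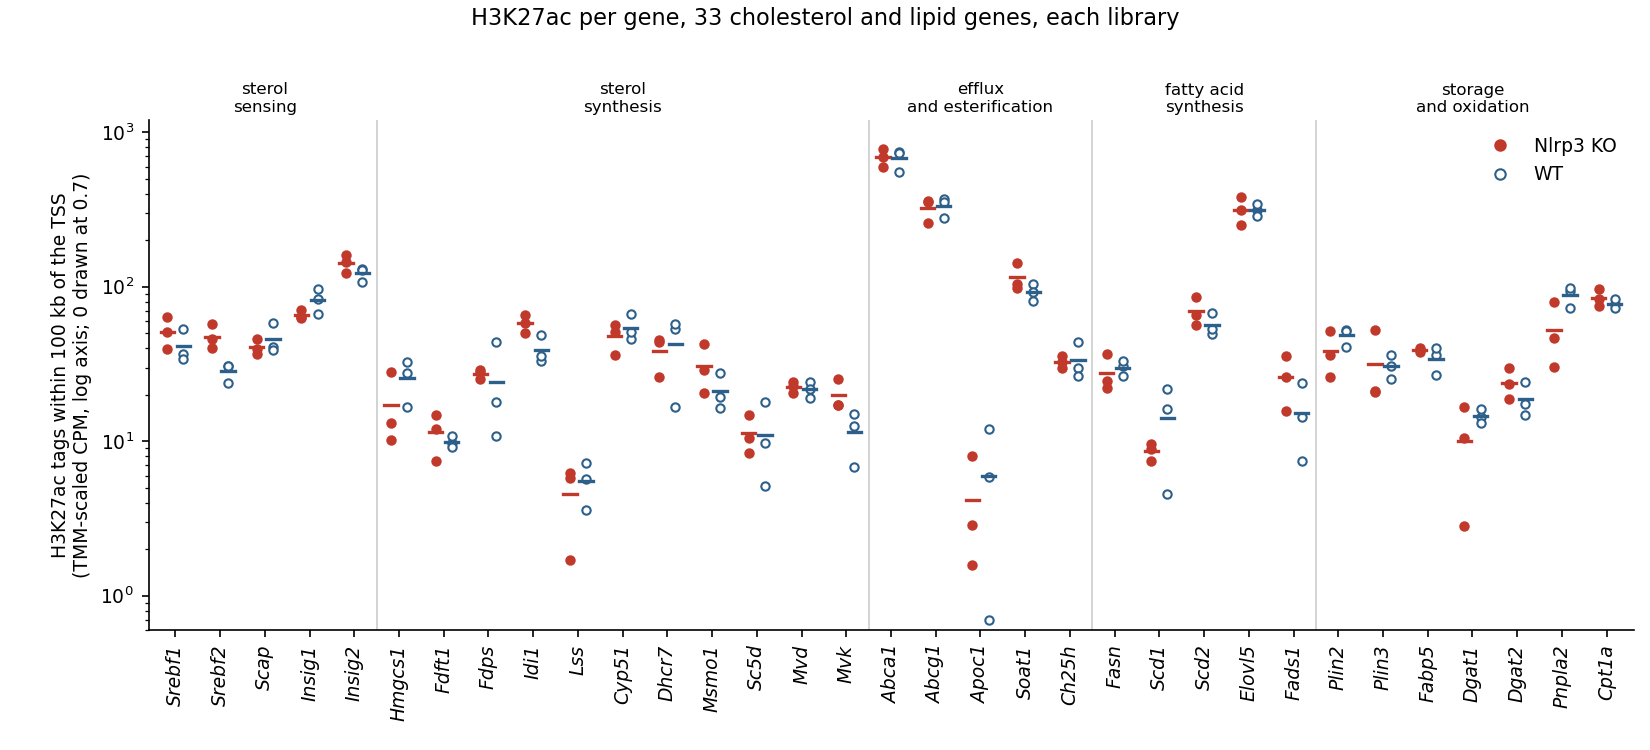
H3K27ac per gene for the 33 tested genes in each of 3 Nlrp3 KO (filled, left) and 3 WT libraries (open, right), as tags within 100 kb of the TSS in TMM-scaled CPM on a log axis, with bars at the means. Abca1, Abcg1 and Elovl5, summed over 20, 17 and 10 windows, lie above all other genes in every library, and with this scaling the groups separate without overlap only for Srebf2, Idi1 and Mvk, and with total-tag scaling only for Srebf2.

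Among the sterol-sensing genes, Srebf2, the main activator of cholesterol synthesis genes, had more H3K27ac in each KO library than in any WT library. Its 6 windows (gene at chr15:82147269-82205379, mm10) held 87, 120 and 70 tags in KO replicates and 47, 51 and 42 in WT replicates. The level was 47.6 ± 8.97 CPM in KO and 28.4 ± 3.83 CPM in WT (TMM-scaled, mean ± SD, n = 3 each), a log2 fold change of 0.75 (SE 0.33) with an edgeR adjusted p of 0.803. Without WT replicate 1 it was 0.81 (edgeR adjusted p = 0.795). With other single libraries left out it ranged from 0.59 without KO replicate 2 (edgeR adjusted p = 0.976) to 0.86 without KO replicate 3. Most of these tags, 70.8% in KO and 74.3% in WT, lay in 1 promoter window at −160 bp from the TSS, which includes the TCACCCCA and ATTGG matches printed for Srebf2. That window held 54, 86 and 56 tags in KO and 35, 35 and 34 in WT, again without overlap once scaled for depth (log2 fold change 0.68, SE 0.36, edgeR adjusted p = 1.00). Input tags in it were 9, 4 and 2 in KO and 2, 7 and 4 in WT.

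The other 4 sensing genes overlapped between the genotypes. Srebf1, the relative of Srebf2 that favours fatty acid genes, averaged 51.2 ± 12.2 CPM in KO and 41.4 ± 10.6 CPM in WT, nearly all of it at promoters (96.9% of tags in KO, 94.6% in WT); the gene lies 656 kb from the Nlrp3 promoter windows on chromosome 11. Insig1, a sterol-dependent retention protein, averaged 65.5 ± 4.43 CPM in KO and 82.2 ± 15.5 CPM in WT. Its relative Insig2 averaged 142.7 ± 19.3 CPM in KO and 122.4 ± 13.1 CPM in WT, and Scap, the escort protein, 40.7 ± 4.79 CPM in KO and 45.9 ± 10.7 CPM in WT. Scap differed from the others in place: its promoter window held 4.29% of its tags in KO and 11.6% in WT, or 0, 8 and 2 tags against 13, 7 and 6. Of the 5 genes 3 had a positive log2 fold change, with a median of 0.22.

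Sterol synthesis was represented by 12 enzymes, 11 of which were tested. Idi1, the isopentenyl diphosphate isomerase (chr13:8885606-8892396, mm10), held 111, 138 and 88 tags in KO and 74, 55 and 62 in WT, all of them in 2 promoter windows that overlap and share tags. With TMM scaling the KO libraries lay above the WT libraries, at 58.1 ± 7.98 CPM in KO and 38.9 ± 8.29 CPM in WT (log2 fold change 0.58, SE 0.30, edgeR adjusted p = 0.892). The window at −43 bp alone held 61, 66 and 29 tags in KO and 37, 27 and 33 in WT, which overlap, while that at 268 bp stayed separate. Without overlapping windows the per-gene log2 fold change was 0.44 (SE 0.39). Mvk, the mevalonate kinase (chr5:114444264-114460591, mm10), held 33, 53 and 30 tags in KO and 23, 21 and 12 in WT, also without overlap; both genes overlapped with total-tag scaling. Its level was 19.9 ± 4.73 CPM in KO and 11.5 ± 4.19 CPM in WT (log2 fold change 0.80, SE 0.50, edgeR adjusted p = 0.922), and without WT replicate 3 the log2 fold change was 0.53. Input in the Mvk promoter window held 2, 5 and 2 tags in KO and 6, 5 and 6 in WT. Over the 2 Mvk windows summed, input held 8, 5 and 4 tags in KO and 7, 7 and 7 in WT. Genotype, H3K27ac and input were also fitted together on these per-gene sums. The log2 interaction of Mvk was 1.28 (SE 0.76, edgeR adjusted p = 0.877), where the median over all genes was 0.19. The promoter window shares 582 bp with one assigned to Mmab, the neighbouring gene on the other strand. The Mmab window held 38, 72 and 27 tags in KO and 26, 19 and 15 in WT, so the signal cannot be told apart between the pair.

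Hmgcs1, which forms HMG-CoA at the head of the pathway and whose promoter has the sterol element, held 25, 59 and 18 tags in KO and 50, 46 and 29 in WT, and the genotypes overlapped (17.2 ± 9.67 CPM in KO, 25.6 ± 8.23 CPM in WT). Msmo1, a sterol methyl oxidase, averaged 30.6 ± 11.2 CPM in KO and 21.1 ± 5.78 CPM in WT. Cyp51, the lanosterol demethylase, averaged 47.8 ± 10.3 CPM in KO and 54.3 ± 10.7 CPM in WT. These 3 overlapped between genotypes, as did every other synthesis gene but Idi1 and Mvk. The diphosphate synthase gene Fdps averaged 27.2 ± 1.87 CPM in KO and 24.2 ± 17.3 CPM in WT, and Mvd, the mevalonate diphosphate decarboxylase, 22.5 ± 1.77 CPM in KO and 21.7 ± 2.52 CPM in WT. Dhcr7, which completes cholesterol, has no window within 1 kb of the TSS its windows were assigned to. Its 3 windows lie 6425 to 9300 bp from that TSS and averaged 38.4 ± 10.6 CPM in KO and 42.5 ± 22.6 CPM in WT; 2 of them, which overlap, lie on another RefSeq start of the gene and are counted here as distal. Low summed levels were measured at Fdft1, the squalene synthase (11.4 ± 3.76 CPM in KO, 9.90 ± 0.820 in WT), Sc5d, a sterol desaturase (11.2 ± 3.27 in KO, 10.96 ± 6.48 in WT), and Lss, the lanosterol synthase (4.56 ± 2.48 in KO, 5.50 ± 1.81 in WT). Fdft1 and Sc5d have only 1 window each. Per kilobase of window they ranked 15 and 16 of the 33 tested genes in KO and 20 and 19 in WT, while Lss ranked 32 and 33. Of the 11 genes 7 had a positive log2 fold change, with a median of 0.05.

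**Figure D2:**
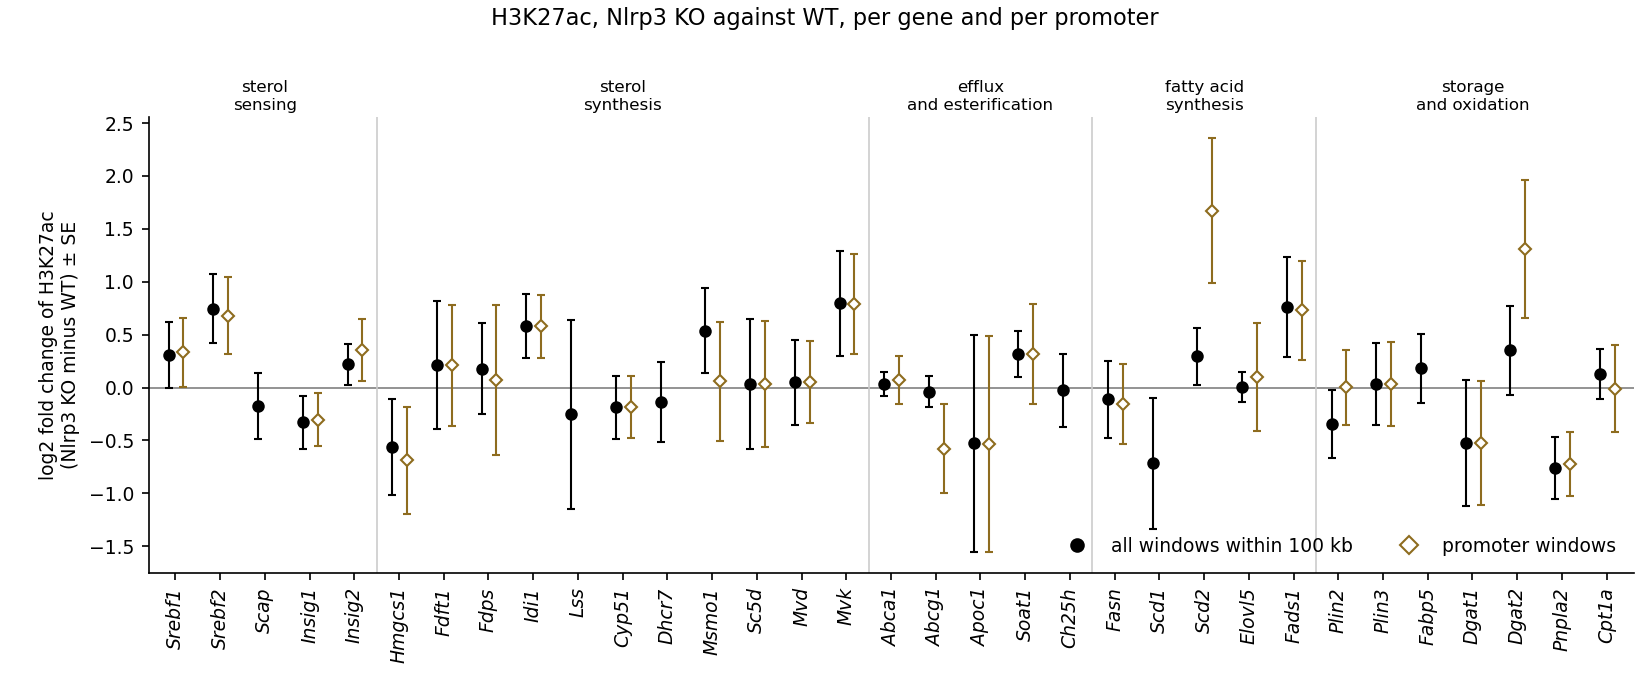
log2 fold change of H3K27ac (Nlrp3 KO minus WT) with its standard error, by gene over all windows within 100 kb (filled circles, 33 genes) and over promoter windows alone (open diamonds, 27 genes). Values scatter on both sides of 0 in every role, and the largest promoter values, 1.67 for Scd2 and 1.31 for Dgat2, have standard errors of 0.69 and 0.65.

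The exporter genes Abca1 and Abcg1, with the most windows of the 33, held the most tags per gene, and differed between genotypes by less than the spread between replicates. Abca1, the exporter that loads cholesterol onto apolipoproteins (chr4:53030789-53159988, mm10), held 1325, 1635 and 1053 tags in KO and 1139, 922 and 1287 in WT over 20 windows. The level was 692 ± 91.6 CPM in KO and 677 ± 109 CPM in WT. Abcg1, a second exporter (chr17:31057694-31117984, mm10), held 684, 740 and 455 tags in KO and 564, 589 and 487 in WT over 17 windows, or 324 ± 56.2 CPM in KO and 333 ± 48.2 CPM in WT. Most of this signal was distal: promoter windows held 17.3% of Abca1 tags in KO and 16.7% in WT, and 4.47% of Abcg1 tags in KO and 6.65% in WT. Idi1, Mvk, Mvd, Cyp51, Fdft1, Sc5d, Sqle, Plin3, Dgat1, Apoc1 and Fads2 had all of their tags in promoter windows. All of these but Mvk had no other window within 100 kb, so that share was fixed by the windows counted. The other window of Mvk held 0 tags in every H3K27ac library.

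Of the remaining efflux and esterification genes, Soat1, which esterifies cholesterol for storage, held 188, 297 and 184 tags in KO and 124, 174 and 161 in WT. It averaged 115 ± 23.6 CPM in KO and 92.3 ± 11.5 CPM in WT, and its p was the smallest of the 5 genes (log2 fold change 0.32, SE 0.22, edgeR adjusted p = 0.931); without KO replicate 2 the log2 fold change was 0.14. The oxysterol-forming enzyme gene Ch25h had 8 windows and no promoter window, and averaged 32.7 ± 3.10 CPM in KO and 33.3 ± 9.24 CPM in WT. The 8 windows held 62, 62 and 63 H3K27ac tags and 53, 20 and 29 input tags in KO. In WT they held 67, 50 and 46 H3K27ac tags and 26, 49 and 23 input tags. These tags are not scaled for depth. Ratios of mean CPM over input per window, with 0.5 CPM added, ran from 0.258 to 3.09 in KO and from 0.360 to 3.25 in WT. The single window of Apoc1, an apolipoprotein gene, held 3, 6 and 14 tags in KO and 9, 20 and 0 in WT.

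Single windows were tested over all 40370 that passed the filter, of which 24 (0.0595%) were called. Of the 105 tested windows of these genes 0 were called by edgeR and 0 by DESeq2, and 2 (1.91%, against 4.69% of all windows) had an unadjusted p under 0.05. The first lay 39303 bp into Abca1, in an intron (chr4:53120092-53121092, mm10), and held 204, 251 and 198 tags in KO against 142, 152 and 110 in WT. It was the highest of the 20 Abca1 windows in both genotypes, at 109 ± 6.65 CPM in KO and 79.2 ± 15.5 CPM in WT (log2 fold change 0.47, SE 0.21, edgeR adjusted p = 0.998), and every KO library lay above every WT library. Without WT replicate 3 the log2 fold change was 0.31. With TMM scaling its neighbours overlapped between the genotypes, and they did not share 1 direction. With total-tag scaling every KO library lay below every WT library in the window at 43858 bp. The intronic window at 43858 bp held 60, 72 and 67 tags in KO and 56, 78 and 102 in WT, and the one at 37423 bp 43, 19 and 16 in KO and 35, 31 and 57 in WT. The nearest, at 37865 bp, held 70, 67 and 29 tags in KO and 41, 44 and 54 in WT. That at 34459 bp held 69, 97 and 53 tags in KO and 35, 46 and 68 in WT. The second lay 3036 bp into Soat1 (chr1:156470792-156471792, mm10) and held 55, 96 and 51 tags in KO against 24, 47 and 28 in WT (log2 fold change 0.80, SE 0.37, edgeR adjusted p = 0.998). A window that overlaps most of it, at 2752 bp, held 43, 98 and 59 tags in KO and 37, 62 and 40 in WT.

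**Figure D3:**
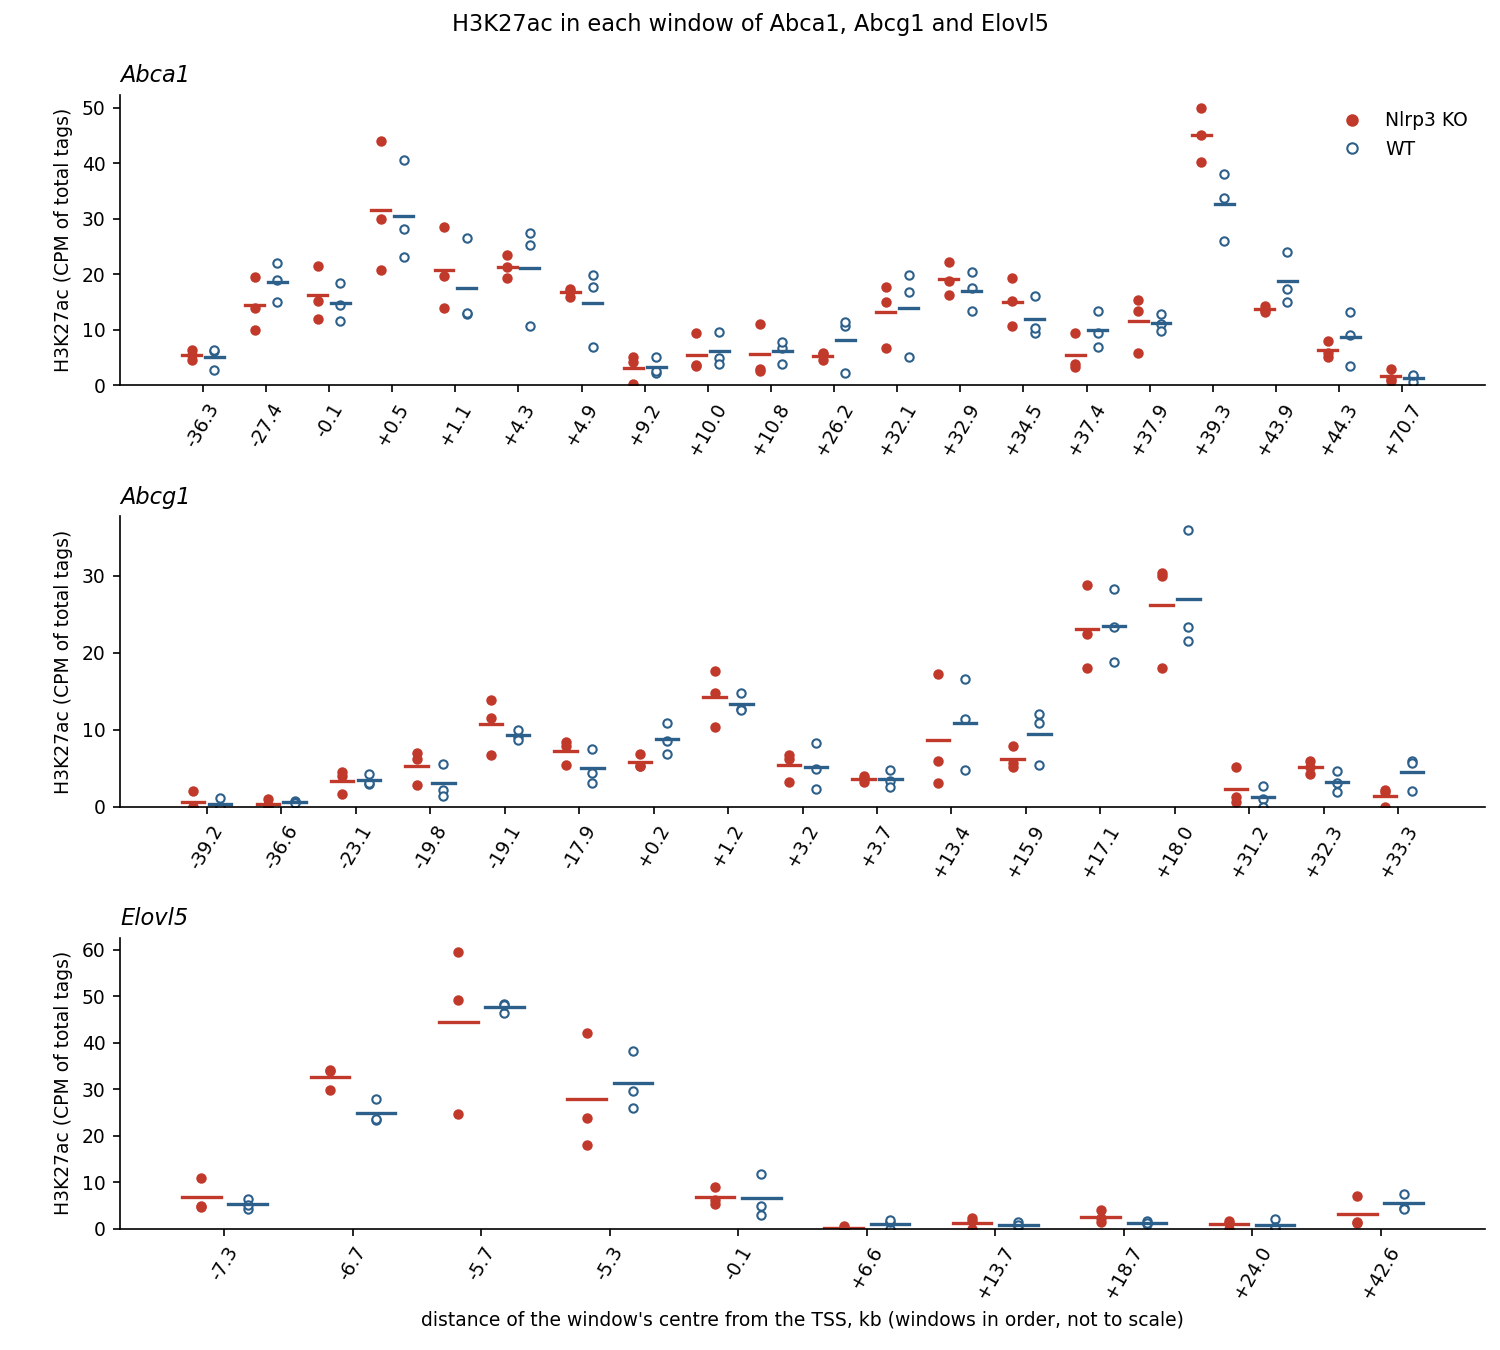
H3K27ac in each window of Abca1, Abcg1 and Elovl5, in CPM of total tags, for 3 Nlrp3 KO (filled, left) and 3 WT libraries (open, right) with bars at the means, ordered by distance of the window's centre from the TSS. The tallest windows lie away from the TSS, at 39303 bp for Abca1, 18030 bp for Abcg1 and −5713 bp for Elovl5, and the genotypes overlap in most windows.

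In 12 of the 105 windows (11.4%, against 10.9% of all) the genotypes did not overlap, with KO higher in 8 (5.48% of all windows were) and lower in 4 (5.4% of all). The 8 were windows of Srebf2, Idi1, Mvk, Abca1, Soat1, Ch25h, Fads1 and Elovl5, and the 4 were windows of Insig1, Insig2, Abcg1 and Ch25h. With total-tag scaling there were 11 (10.5%, against 10.1% of all), with those of Mvk, Soat1 and Insig1 overlapping and windows of Dgat2 (higher) and Abca1 (lower) separate. Over the genes' promoter windows 26 of 40 (65.0%) had a positive log2 fold change, where 49.7% of all promoter windows did, and over their distal windows 31 of 65 (47.7%), where 50.8% of all did. Some of these windows overlap and share tags. Summed per promoter, 18 of 27 genes (66.7%, against 49.99% of all promoters) were positive with a median of 0.06, and without WT replicate 3 it was 13 of 27 with a median of −0.03. Windows from the KO site list alone had a median log2 fold change of −0.11 (8 tested), windows from the WT list alone of 0.04 (11) and windows in both lists of 0.05 (86). The lists themselves were divided as in the rest of the table, since 76.4% of the 157 windows stood in both, 15.3% in the WT list alone and 8.28% in the KO list alone, against 75.8%, 16.3% and 7.90% of all windows within 100 kb.

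In the fatty acid genes most signal belonged to Elovl5, an elongase of polyunsaturated fatty acids (chr9:77917365-77984519, mm10). It held 726, 655 and 441 tags in KO and 481, 572 and 500 in WT, or 314.9 ± 64.6 CPM in KO and 314.0 ± 28.3 CPM in WT. Its promoter window held 24, 31 and 44 tags in KO and 44, 22 and 12 in WT, while 3 windows at −6654, −5713 and −5286 bp from the TSS held most of the rest. One of them, at −6654 bp, held 154, 172 and 147 tags in KO and 87, 106 and 118 in WT, without overlap once scaled. The tallest, at −5713 bp, overlapped, with 270, 247 and 121 tags in KO and 173, 217 and 204 in WT.

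Scd2 and Scd1 encode stearoyl-CoA desaturases. Over all its windows Scd2 averaged 69.5 ± 14.9 CPM in KO and 56.7 ± 9.35 CPM in WT. In its 2 promoter windows it held 34, 53 and 7 tags in KO and 11, 6 and 7 in WT; KO replicates 1 and 2 were high, and KO replicate 3 lay within the WT range. That gave the smallest promoter p of the 27 tested genes (log2 fold change 1.67, SE 0.69, unadjusted p = 0.0233, edgeR adjusted p = 1.00). Its neighbour Scd1 averaged 8.62 ± 1.11 CPM in KO and 14.1 ± 8.74 CPM in WT, with 1, 0 and 8 promoter tags in KO and 2, 0 and 1 in WT. Fads1, a desaturase of polyunsaturated fatty acids, had the smallest per-gene p of the group (25.9 ± 9.91 CPM in KO, 15.2 ± 8.29 CPM in WT, log2 fold change 0.76, SE 0.47, edgeR adjusted p = 0.922). The value moved with single libraries: it was 0.45 without KO replicate 1, 0.42 without WT replicate 3 and 1.24 without WT replicate 2. Its libraries overlapped, with 68, 33 and 46 tags in KO and 22, 40 and 13 in WT. Fasn, whose promoter has the LXR match, averaged 27.7 ± 7.84 CPM in KO and 29.96 ± 3.38 CPM in WT.

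Among genes of storage, transport and oxidation, Pnpla2, the triglyceride lipase of lipid droplets (chr7:141455188-141460743, mm10), had the smallest per-gene p of all 33. It held 152, 98 and 53 tags in KO and 112, 157 and 173 in WT, or 52.2 ± 25.2 CPM and 88.6 ± 13.6 CPM (log2 fold change −0.76, SE 0.29, unadjusted p = 0.0151, edgeR adjusted p = 0.703). KO replicate 1 lay within the WT range and KO replicate 3 was the lowest, and without KO replicate 3 the log2 fold change was −0.49, while without KO replicate 1 it was −1.20 with an edgeR adjusted p of 0.292. Over its 3 promoter windows the order was the same, with 141, 92 and 49 tags in KO and 107, 140 and 154 in WT (log2 fold change −0.72, SE 0.31, edgeR adjusted p = 1.00), at −1.16 without KO replicate 1 and −0.45 without KO replicate 3. The single promoter window of Dgat2, an enzyme that completes triglycerides, held 45, 18 and 19 tags in KO and 4, 10 and 15 in WT (log2 fold change 1.31, SE 0.65, edgeR adjusted p = 1.00). KO replicate 1 was far the highest, and without it the log2 fold change was 0.75. The lowest KO library, at 22.3 CPM, and the highest WT library, at 21.8 CPM, were separated by little with the scaling of the promoter test, and they overlapped with that of the window test. Over all 5 Dgat2 windows the libraries overlapped (23.95 ± 5.62 CPM in KO, 18.8 ± 4.83 CPM in WT).

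The lipid droplet coat genes Plin2 and Plin3 averaged 38.1 ± 12.9 and 31.5 ± 18.1 CPM in KO, against 48.4 ± 6.82 and 30.6 ± 5.38 CPM in WT. Plin3 varied most within KO, since replicate 3 held 92 tags where replicates 1 and 2 held 40 and 44. Dgat1, the other enzyme of that last step, averaged 10.0 ± 6.96 CPM in KO and 14.6 ± 1.52 CPM in WT. Fabp5, a fatty acid carrier, averaged 38.9 ± 1.39 CPM in KO and 34.3 ± 6.77 CPM in WT, and Cpt1a, which admits fatty acids to mitochondria for oxidation, 85.0 ± 10.6 CPM in KO and 77.6 ± 5.33 CPM in WT. All 5 overlapped between the genotypes.

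Promoter windows (within 1 kb of the TSS) were also tested alone. They existed for 33 of the 37 genes, 27 of which passed the filter, and 0 were called by edgeR or DESeq2, where edgeR called 1 of 9139 promoters (0.0109%), that of Nlrp3. An unadjusted p under 0.05 was found for 2 of the 27 (7.41%, against 4.76% of all), Scd2 and Pnpla2. In 5 of the 27 (18.5%, against 10.2% of all) the genotypes did not overlap. KO was higher in 4 of these, Srebf2, Idi1, Mvk and Dgat2, where 5.10% of all promoters were higher without overlap, and lower in 1, Abcg1, where 5.12% were. The count depends on the scaling: with libraries scaled to total tags it was 3 of 27 (11.1%, against 9.57% of all), Srebf2 and Dgat2 higher and Abcg1 lower, and with the scaling of the window test Dgat2 overlapped. The single promoter window of Abcg1 held 31, 27 and 26 tags in KO and 32, 31 and 46 in WT (log2 fold change −0.58, SE 0.42, edgeR adjusted p = 1.00). The promoter of Abca1 held 205, 329 and 161 tags in KO and 205, 156 and 197 in WT, and overlapped.

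**Figure D4:**
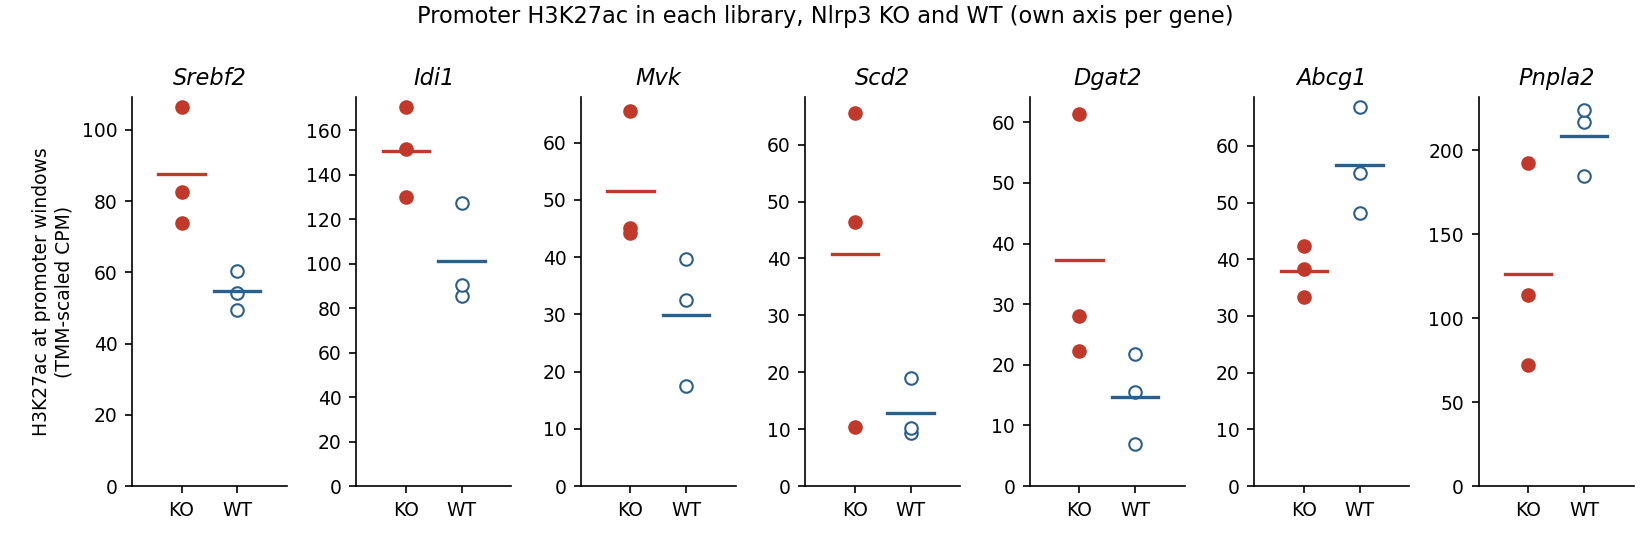
H3K27ac over promoter windows (TMM-scaled CPM, own axis from 0 for each gene) in each of 3 Nlrp3 KO (filled, left) and 3 WT libraries (open, right), with bars at the means. With this scaling KO libraries lie above WT libraries for Srebf2, Idi1, Mvk and, by a narrow margin, Dgat2, and below them for Abcg1; with total-tag scaling Idi1 and Mvk overlap, and with the scaling of single windows Dgat2 does. The libraries overlap for Scd2 and Pnpla2.

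Levels were compared between genes per kilobase of window counted, so that tags in overlapping windows are not divided by fewer bases. The highest in KO were Abca1 at 34.6, Elovl5 at 31.5, Idi1 at 29.04 and Cyp51 at 23.9 CPM per kb, and the highest in WT were Abca1 at 33.8, Elovl5 at 31.4, Insig1 at 27.4 and Cyp51 at 27.1 CPM per kb. The lowest of the tested genes in both were Scd1 (2.16 in KO, 3.54 in WT) and Lss (2.28 in KO, 2.75 in WT). Abca1 and Elovl5 thus ranked 1 and 2 in both genotypes, while Idi1 ranked 3 in KO and 8 in WT and Pnpla2 ranked 13 in KO and 5 in WT. The order was not tested.

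H3K27ac was then set against input in the window nearest each TSS, as the ratio of group mean CPM with 0.5 CPM added to both. The highest ratios in KO were those of Insig2 (14.3), Insig1 (14.1) and Abca1 (13.8), which in WT stood at 5.65, 11.2 and 10.6. The highest in WT were those of Abcg1 (14.6) and Pnpla2 (13.0), which in KO stood at 5.94 and 6.70. Both rest on few input tags: the Abcg1 window held 1, 1 and 0 in WT and 6, 2 and 1 in KO. The Pnpla2 window held 4, 4 and 0 input tags in WT and 4, 3 and 3 in KO, and its H3K27ac tags in WT were 30, 45 and 91. The lowest 4 ratios in KO were those of Fads2 (0.644), Scap (0.993), Scd1 (1.12) and Sqle (1.27), which in WT stood at 0.861, 2.01, 0.556 and 1.95. The lowest 4 in WT were those of Scd1, Fabp5 (0.721), Fads2 and Scd2 (1.07); in KO Fabp5 stood at 1.58 and Scd2 at 3.84. These low ratios rest on few tags: the Fads2 window held 2, 0 and 0 H3K27ac tags in KO and 1, 0 and 1 in WT. Calls against input were made on another quantity, the sum of all windows within 1 kb of each TSS. Without an abundance filter, 26 of the 33 promoters were called above input in KO and 24 in WT by edgeR (76.9% and 74.4% of all promoters were), and 1, Scd1, was called below input in WT. With the filter, which promoters mostly pass through their H3K27ac libraries, 24 of 24 in KO and 22 of 22 in WT were called, where 99.4% and 98.9% of all were.

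**Figure D5:**
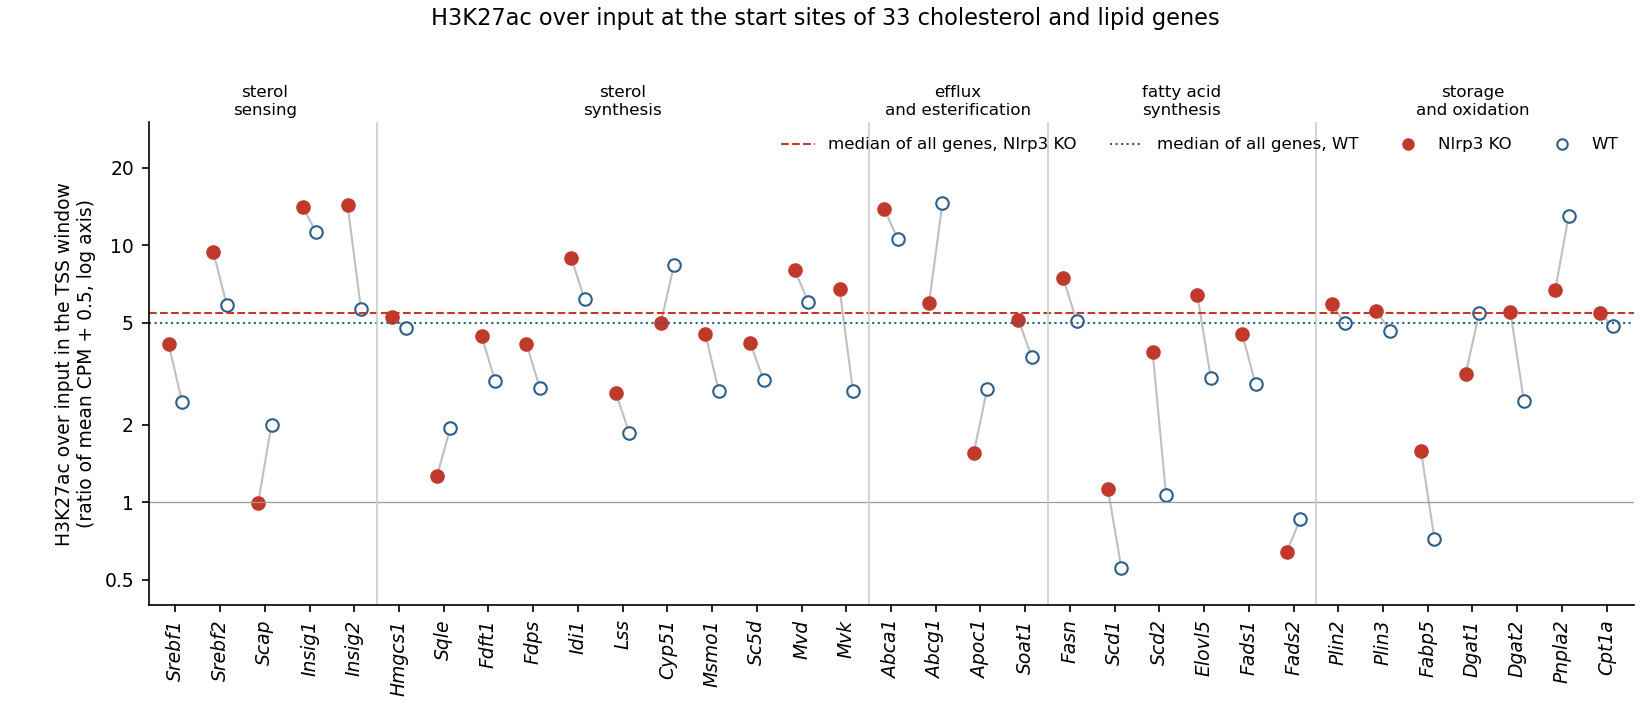
H3K27ac over input at the window nearest the TSS for 33 genes in Nlrp3 KO (filled, left) and WT (open, right), as a ratio of group mean CPM with 0.5 added, on a log axis. Dashed and dotted lines mark the medians of all genes, 5.46 in KO and 4.998 in WT, and 8 of the 11 synthesis genes lie below the line in KO, as do 8 of 11 in WT.

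The median of this ratio over the 33 TSS windows was 5.12 in KO and 3.04 in WT, against 5.46 in KO and 4.998 in WT over 11591 genes. Summed over the 33 windows, H3K27ac was 203, 216 and 179 CPM in KO and 200, 172 and 186 CPM in WT, which overlap, and input was 24.6, 22.5 and 17.8 CPM in KO and 25.0, 28.4 and 33.5 CPM in WT, with every WT library above every KO library. Input over all genes' TSS windows was also lower in each KO library (8099, 7315 and 7548 CPM) than in any WT library (8272, 8990 and 9394 CPM). The ratio rests on 75 to 171 input tags per library in these 33 windows. In the distal windows of these genes the median ratio was 3.25 in KO and 3.27 in WT, against 2.55 and 2.36 over all distal windows. It was highest in the efflux group, at 5.56 in KO and 5.05 in WT, and for single windows in Elovl5 at −5713 bp, at 27.3 in KO and 24.1 in WT.

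Other genes of the pathway, listed by function outside the 37, were counted in the same per-gene test. Of 61 such genes 56 had a window and 47 were tested; 0 were called, where 0.206% of all genes were, and 1 (2.13%, against 5.77% of all) had an unadjusted p under 0.05. In 2 (4.26%, against 11.3% of all) the genotypes did not overlap. The log2 fold change was positive for 20 and negative for 27, with a median of −0.06. Osbp, the oxysterol-binding protein, had the smallest p of the positive ones (186.8 ± 14.3 CPM in KO, 133.6 ± 32.1 CPM in WT, log2 fold change 0.49, SE 0.19, edgeR adjusted p = 0.703), with every KO library above every WT library. Scarb1, a scavenger receptor for lipoproteins, was the one with every KO library below every WT library (57.95 ± 12.1 CPM in KO, 80.3 ± 20.5 CPM in WT, log2 fold change −0.47, SE 0.27, edgeR adjusted p = 0.907). Lipa, the lysosomal acid lipase, had the smallest p of the negative ones (112 ± 18.6 CPM in KO, 147 ± 22.6 CPM in WT, log2 fold change −0.40, SE 0.20, edgeR adjusted p = 0.884), and its libraries overlapped.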

How the data were processed

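The deposited values used were raw tag counts per library and window, which the authors made, per the file headers, with HOMER's annotatePeaks.pl on mm10 in 1000 bp windows on merged ATAC sites; the submitters' processing notes also name DESeq2. The aligner and the handling of duplicates are not given in the sources used, nor are tool versions. Counts were summed per gene (windows within 100 kb of the TSS) and per promoter (within 1 kb) and tested with edgeR 4.0.16 in R 4.3.3 (TMM scaling, filterByExpr, quasi-likelihood, Benjamini-Hochberg over all features, threshold 0.05); DESeq2 1.42.0 was an alternative. Standard errors (SE) are absolute log2 fold changes divided by the root of the F statistic. CPM levels are TMM-scaled over the features kept; ratios over input and marker sums use total tags. Methods were tested on simulated data. No molecular identifiers are described, and shallow windows limit precision. Members and lists were chosen with earlier results of these data known. Named with a fold change were called genes, genes without overlap and the smallest p in each role; windows given with a fold change had an unadjusted p under 0.05 and at least median abundance. The other single windows described were chosen after their values were seen, as was Scarb1. Replicate numbers were not used as pairs. The Y-linked difference of WT replicate 1 was not a covariate.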

Additional observations from a re-analysis of the deposited data

How the results depend on the processing

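No setting moved any of these genes, promoters or windows past the threshold. At most 35 of the 37 genes were tested in any setting, and 0 were called for KO against WT per gene, promoter or window. The 15 named results kept their sign in all 188 alternative values, with a smallest adjusted p of 0.292 (Pnpla2). They were chosen from these same tags for lack of overlap or a small p, so a kept sign was largely set by that choice. Mvk has no per-gene value without overlapping windows, because that setting removes its window. Counts over the whole table did move. Per gene, the 25 calls became 38 with DESeq2, 16 with total-tag scaling, 48 with no filter, 11 with windows within 10 kb, 0 in the interaction of genotype with input, and 8 to 18 with 1 library left out. In that interaction the 33 genes' median log2 fold change was 0.33, against 0.19 over all genes, and the log2 fold changes of Fads1, Mvk, Soat1 and Pnpla2 were 1.603, 1.28, 0.64 and −1.31. Per window, the 24 calls became 68 with DESeq2, 68 with no filter and 10 to 29 with 1 library left out, and the median over these genes' windows ranged from −0.0053 to 0.16, the highest without WT replicate 1. Per promoter, the 1 call became 7 with DESeq2, 5 with total-tag scaling, 8 with no filter and 1 to 5 with 1 library left out. Same-numbered KO and WT replicates did not deviate together (r = 0.00266, 0.0117 and −0.00675); with replicate number as a block the calls were 15 per gene and 3 per promoter. Against input, 24 of 24 filtered promoters in KO and 22 of 22 in WT were called higher, as were 7869 of 7920 and 7618 of 7700 of all. With TMM scaling these counts were 1 gene in KO and 1 in WT, and 830 and 806 of all promoters, since that scaling centres the differences on 0. The median ratio over input was 6.86 in KO and 3.93 in WT with 0.1 CPM added, and 2.88 and 2.24 with 2 CPM added. Otherwise the cause was not tested. Depth limits single windows most: the median window held 12 to 16 H3K27ac tags and 2 to 5 input tags.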

Other observations

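The values here were chosen after they were seen. On chromosome 13 the 17 windows nearest Ccl28, a chemokine gene, end 71804 bp before the promoter window of Hmgcs1. Their summed input was 26.4, 28.8 and 25.1 CPM of total tags in KO and 79.4, 80.4 and 69.4 CPM in WT, without overlap. The windows of Hmgcs1 itself did not share this, with input of 1.29, 1.20 and 2.35 CPM in KO and 1.27, 1.62 and 2.13 CPM in WT. H3K27ac in the Ccl28 windows was 16.3, 18.3 and 9.54 CPM in KO and 25.8, 43.0 and 33.6 CPM in WT, below their input in all 6 libraries. The intragenic window of Acaca farthest from its TSS, at 155.9 kb, held 17, 19 and 23 H3K27ac tags in KO and 18, 35 and 44 in WT, while the 2 nearer ones held 0 to 3 in every library.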
